A study of Rattus norvegicus with 15 samples.

Results

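Rab GTPases are small membrane proteins that switch between a bound GTP and a bound GDP and direct vesicle traffic inside cells. Their transcripts were followed here in pancreatic islet cells of 10-day-old Sprague-Dawley rats. Members were all genes whose symbol is Rab, a number, an optional letter from a to d and an optional last digit, which gave 54 of the 17055 genes counted. Islets had been dispersed and their cells transfected with a synthetic copy of the microRNA miR-17-5p, called a mimic, or with a control miRNA mimic, and the labels name no genetic change in either group. The libraries formed 4 groups, 15 libraries in all: 5 mRNA libraries of miR-17-5p cells (replicates 1, 2, 4, 5 and 6), 3 mRNA libraries of control cells (replicates 1, 2 and 3), 4 libraries of Ago2-bound RNA from miR-17-5p cells (replicates 2, 4, 5 and 6) and 3 libraries of Ago2-bound RNA from control cells (replicates 1, 2 and 3). Poly(A) RNA gave the mRNA libraries. Ago2-bound RNA came from an immunoprecipitation of Ago2, the Argonaute protein that holds microRNAs and the transcripts they pair with. Values of single libraries are given below in this order of replicates.

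Each Rab protein sits on a particular membrane, is switched on by an exchange factor, recruits effectors such as tethers and motors, and is switched off by a GTPase activating protein. A lipid anchor, attached with the help of Rab escort proteins, holds it in the membrane. In beta cells Rab3 and Rab27 proteins are known for their part in bringing insulin granules to the plasma membrane, while other Rabs serve transport between endoplasmic reticulum and Golgi, endosomes, lysosomes and cilia. The 54 members were grouped by their textbook role into 7 of granules and regulated exocytosis, 13 of endoplasmic reticulum and Golgi, 7 of early endosomes, 14 of recycling and delivery to the cell surface, 8 of late endosomes, lysosomes and autophagy, and 5 of cilia and other functions.

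MicroRNAs pair with transcripts mainly through their seed, bases 2 to 8. The mature sequence of the transfected microRNA is shown with the family members that share its seed, because the mimic adds to a pool of microRNAs with the same seed. Sequences are from RefSeq (assembly GRCr8), 5′ to 3′, with the seed in capitals, and 5 microRNAs of the table carried it:
rno-miR-17-5p: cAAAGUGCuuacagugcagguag
rno-miR-20a-5p: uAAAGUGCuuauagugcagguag
rno-miR-20b-5p: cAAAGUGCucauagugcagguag
rno-miR-93-5p: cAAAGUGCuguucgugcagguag
rno-miR-106b-5p: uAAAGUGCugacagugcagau
The table places this mature miR-17-5p sequence at 2 loci, chr15:98587861-98587883 on the plus strand and chrX:137343615-137343637 on the minus strand. Transcript sequences were not used here, so no Rab transcript was searched for a match to the seed.

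Insulin transcripts, the mark of beta cells, made up 26.2% to 41.8% of counts in mRNA of miR-17-5p cells and 36.8% to 41.6% in mRNA of control cells. In Ago2-bound RNA they made up 0.947% to 1.47% in miR-17-5p cells and 1.69% to 1.97% in control cells. The gene Rn45s held 3.75% to 12.8% and 3.13% to 9.99% of mRNA counts in these cells. Its share of Ago2 counts was 26.6% to 42.6% and 23.6% to 37.9%. Titles and descriptions number the replicates differently. Where libraries share a source, their spread is technical, and the p-values then cover no more than that spread. Library depth was 3379456 to 21056240 counts in mRNA and 4185123 to 13420403 in Ago2-bound RNA. Values are CPM, counts scaled to library size, on 1 scale for all libraries. Summed over the 54 members they came to 2531 to 2819 CPM in mRNA of miR-17-5p cells and 2524 to 2849 CPM in mRNA of control cells. Ago2-bound RNA held 1706 to 2008 CPM of Rab transcripts in miR-17-5p cells and 1669 to 2069 CPM in control cells. Without the factors the ranges overlapped. Rab genes were 0.2126% to 0.244% of counts in miR-17-5p mRNA and 0.2099% to 0.2369% in control mRNA. In Ago2-bound RNA they were 0.1699% to 0.2409% in miR-17-5p cells and 0.2009% to 0.2773% in control cells. The Ago2 libraries differed in how many genes they detected. Thinned to 3379456 counts, the miR-17-5p Ago2 libraries detected 8878 to 10607 genes and the control Ago2 libraries 5480 to 7041. Control Ago2 library 3 stood apart from the rest, with 28 of 54 Rab genes at 0. Markers of stellate cells and fibroblasts, cells that live beside the endocrine cells, were higher with the mimic for 9 of 14 tested in mRNA, against 3.11% of all genes. Their summed level there was 21286 to 46693 CPM in miR-17-5p cells and 11246 to 19818 CPM in control cells. In Ago2-bound RNA 5 of 14 were higher, against 0.339% of all genes. The sums were 23767 to 26657 CPM in miR-17-5p cells and 4546 to 9973 CPM in control cells. Of this list Col1a2 was at 0 in every library, and Thy1, Des and Dcn were also at 0 in control Ago2 library 3. Beta cell markers summed to 298942 to 558385 CPM in mRNA of miR-17-5p cells and 425511 to 503725 CPM in mRNA of control cells, which overlap. Of 8 beta cell markers 0 were called, but 8 had a fold change below 0 in mRNA (median log2 fold change -0.41) and 7 in Ago2-bound RNA (median -0.59). Over all genes 50.7% lay above 0 in mRNA and 59.0% in Ago2-bound RNA. At an unadjusted p under 0.05 by edgeR, 3 beta cell markers were lower in mRNA, against 8% of all genes. In Ago2-bound RNA 4 were, against 2.39%. Endothelial markers summed to 25.8 to 69.3 CPM in mRNA of miR-17-5p cells and 75.8 to 115 CPM in mRNA of control cells, which do not overlap. Of 9 tested, 2 were lower, Cdh5 and Kdr, against 0.767% of all genes. Pyy, a hormone of PP cells, was also lower in mRNA (log2 fold change -0.80 ± 0.17 SE, edgeR adjusted p = 0.0183). Acinar markers summed to 6.09 to 10.7 CPM in Ago2-bound RNA of miR-17-5p cells and 41.0 to 48.4 CPM in that of control cells. Only 2 of them passed the filter there. In mRNA the acinar list went the other way, with 5 of 6 tested above 0 and a median log2 fold change of 0.93. Its sums in mRNA overlapped, at 20.8 to 158 CPM in miR-17-5p cells and 15.3 to 45.2 CPM in control cells. Macrophage and leukocyte markers summed to 230 to 331 CPM in Ago2-bound RNA of miR-17-5p cells and 0.159 to 102 CPM in that of control cells. In mRNA 10 of 10 were above 0, with a median log2 fold change of 0.80, and 0 were called. The part of these markers and of gene detection in the results below was not tested. In such bulk samples fewer cells of a type and less RNA per cell cannot be told apart.

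Most Rab genes were detected in mRNA of islet cells. Every mRNA library held counts for at least 49 of the 54 members, and 51 members passed the filter on low counts in the mRNA comparison. The members with the most counts in mRNA were Rab7a, Rab1a, Rab3d, Rab5c and Rab5b, although read counts grow with transcript length and lengths were not used here, so levels were compared between groups and not between genes. Rab7a, which takes late endosomes to lysosomes, had 428, 363, 321, 319 and 341 CPM in mRNA of miR-17-5p cells and 353, 408 and 332 CPM in mRNA of control cells. Rab1a, which serves transport from the endoplasmic reticulum to the Golgi, had 319, 258, 317, 364 and 304 CPM in mRNA of miR-17-5p cells and 227, 285 and 255 CPM in mRNA of control cells. Both genes overlapped between the groups. Replicates lay close together in mRNA: the median standard deviation of a member's log2 CPM was 0.313 in miR-17-5p cells and 0.216 in control cells, against 0.318 and 0.295 over all genes. In Ago2-bound RNA it was 0.559 in miR-17-5p cells and 1.00 in control cells, against 0.598 and 0.973 over all genes. Rab genes thus varied between replicates about as much as other genes did, and most in the control Ago2 libraries.

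**Figure D1:**
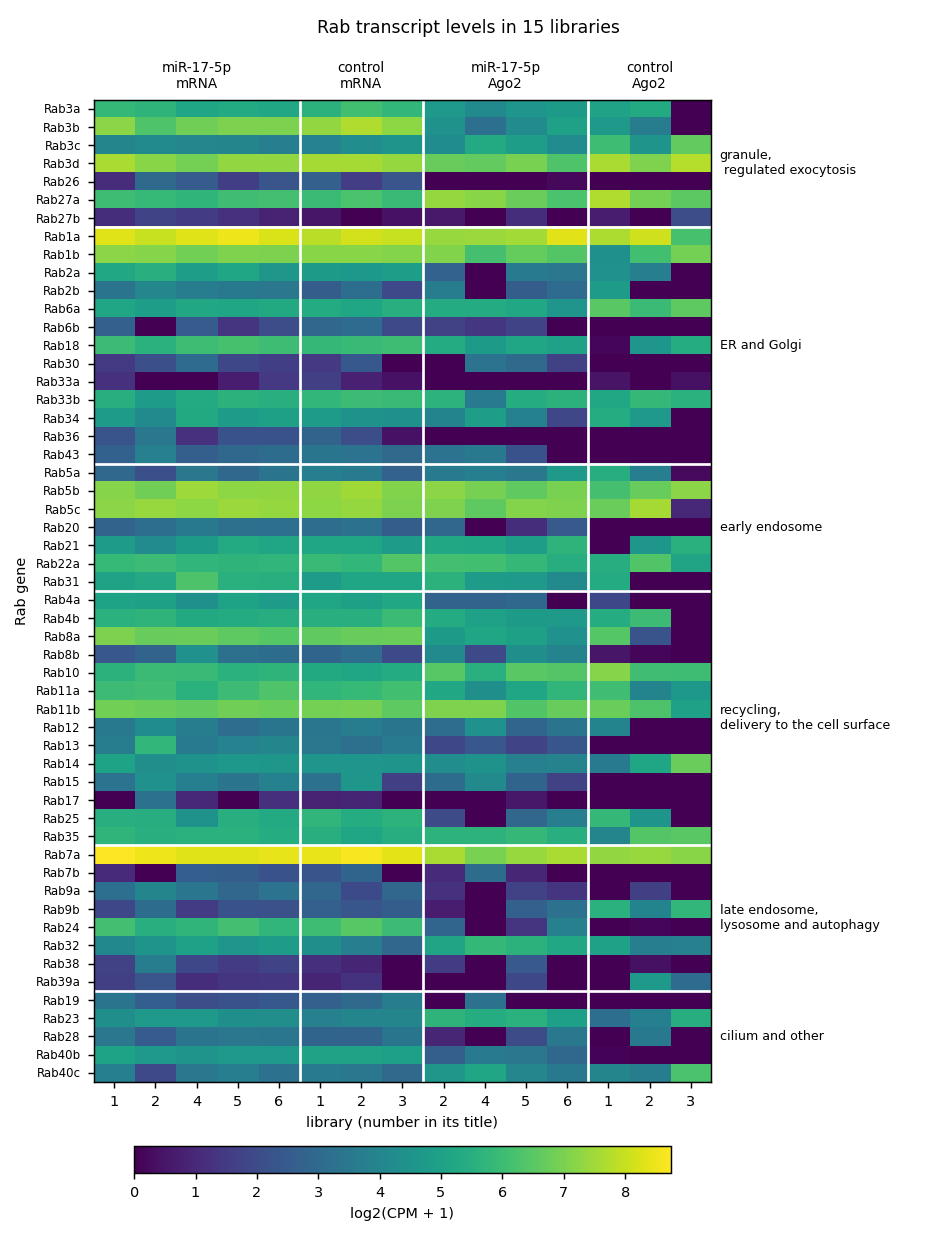
Level of the 54 Rab genes (rows, ordered by role) in the 15 libraries (columns), as log2(CPM + 1). The mRNA columns look alike in miR-17-5p and control cells, while the Ago2 columns of control cells hold many genes at 0, 28 of 54 in library 3.

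The first comparison asked how the added microRNA changed Rab transcripts in the poly(A) RNA of the cells. No Rab gene passed the test: 0 of 51 tested members had an adjusted p under 0.05 (edgeR quasi-likelihood test, two-sided, Benjamini-Hochberg adjusted over all genes tested), against 3.87% of all genes, 3.11% higher and 0.767% lower. At an unadjusted p under 0.05, 7 members were higher, against 11% of all genes, and 2 were lower, against 8%. DESeq2 called 0 members, and limma-voom called 2 as lower, Rab3b and Rab3a. The median log2 fold change of the members was 0.02, against 0.01 over all genes, with 26 members above and 25 below 0. Groups did not overlap for 6 members, 4 higher (Rab10, Rab2b, Rab23 and Rab38, against 8.42% of all genes) and 2 lower (Rab3b and Rab33b, against 6.64%).

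Among the granule Rabs, 5 of the 6 tested members had a fold change below 0. Rab3b, a Rab3 form found in endocrine cells, had 149, 79.6, 113, 129 and 130.1 CPM in miR-17-5p cells and 161, 208 and 151 CPM in control cells. All 5 miR-17-5p libraries lay below all 3 control libraries, but the difference did not pass edgeR's test (log2 fold change -0.53 ± 0.18 SE, adjusted p = 0.127). With limma-voom and quality weights it did, at an adjusted p of 0.0244. Rab3a, the form best known from synaptic vesicles, had 56.1, 50.4, 35.1, 39.6 and 36.7 CPM in miR-17-5p cells and 48.4, 67.3 and 53.7 CPM in control cells. The groups overlapped, with log2 fold change -0.37 ± 0.19 SE, adjusted p = 0.317 by edgeR and an adjusted p of 0.0412 by limma-voom. On assembly GRCr8 the span of Rab3a overlaps that of the gene Mpv17l2. Ambiguous alignments stayed out of the counts, and the overlap in build rn5, used for counting, was not examined. How far the overlap affects the Rab3a counts was not tested.

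The other Rab3 forms gave smaller differences. Rab3d, found on secretory granules of exocrine and endocrine cells, had 199, 146, 119.9, 159 and 158 CPM in miR-17-5p cells and 187, 190.3 and 162 CPM in control cells (log2 fold change -0.200 ± 0.15 SE, adjusted p = 0.514). Rab3c had 15.1, 16.9, 15.7, 14.6 and 12.5 CPM in miR-17-5p cells and 13.7, 18.6 and 22.1 CPM in control cells (log2 fold change -0.26 ± 0.24 SE, adjusted p = 0.61). Both genes overlapped between the groups. Rab27a, which docks insulin granules through effectors such as granuphilin, had 64.2, 56.7, 52.3, 65.9 and 69.5 CPM in miR-17-5p cells and 60.96, 76.8 and 60.1 CPM in control cells (log2 fold change -0.09 ± 0.15 SE, adjusted p = 0.784). Rab26, a Rab of secretory granules, had 1.13, 7.17, 4.82, 2.11 and 3.96 CPM in miR-17-5p cells and 5.36, 2.03 and 3.91 CPM in control cells (log2 fold change 0.02 ± 0.66 SE, adjusted p = 0.991). Rab26 and Rab27a overlapped between the groups. Rab27b, the second Rab27 form, did not pass the filter, with 19, 18, 11, 7 and 7 counts in miR-17-5p cells and 4, 0 and 1 counts in control cells.

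**Figure D2:**
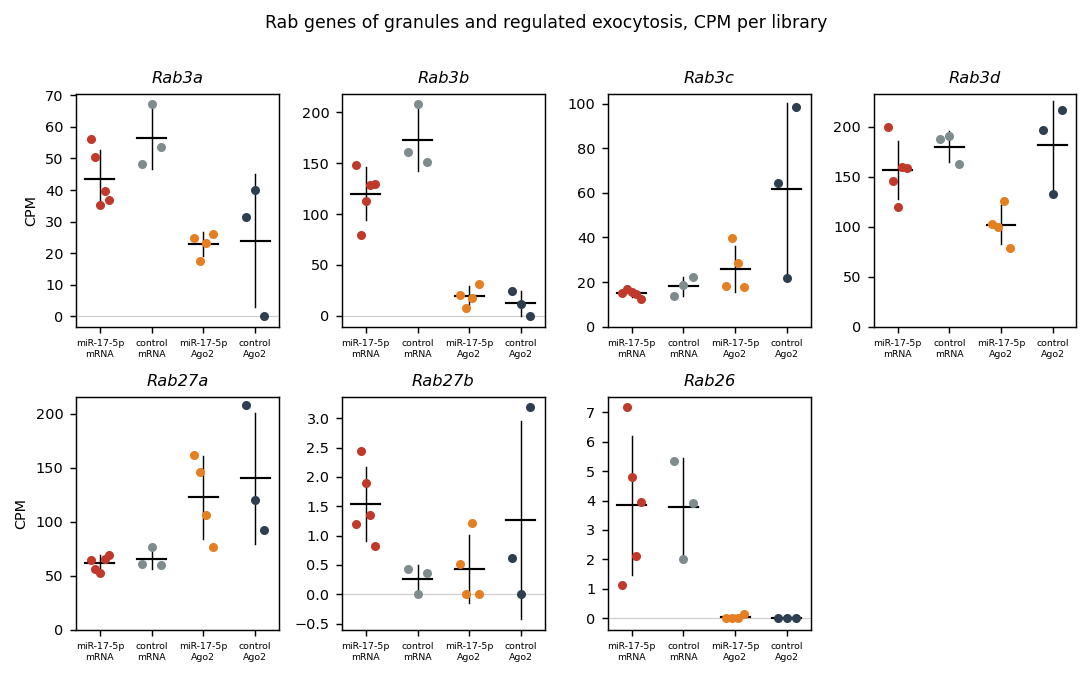
CPM of the 7 granule Rab genes per library (points) with the mean and standard deviation of each group (bars). In mRNA Rab3b is lower in each miR-17-5p library than in each control library, while Rab27a overlaps; in Ago2-bound RNA Rab3d is lower in all 4 miR-17-5p libraries than in the 3 control libraries.

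Among the 12 tested Rabs of endoplasmic reticulum and Golgi, 7 had a fold change above 0 and 5 below. Rab2b, one of a pair of Rab2 proteins that act at the Golgi, had 9.38, 15.7, 11.7, 10.6 and 10.1 CPM in miR-17-5p cells and 5.03, 7.97 and 2.85 CPM in control cells. Every miR-17-5p library lay above every control library, yet the difference missed the threshold (log2 fold change 1.08 ± 0.37 SE, adjusted p = 0.124). Rab33b, a Golgi Rab that also acts in autophagy, had 43.8, 27.1, 39.9, 47.9 and 43.3 CPM in miR-17-5p cells and 54.1, 62.3 and 58.01 CPM in control cells. Here all miR-17-5p libraries lay below all control libraries (log2 fold change -0.52 ± 0.18 SE, adjusted p = 0.139). The most counted member of this role, Rab1a, gave a log2 fold change 0.29 ± 0.14 SE, adjusted p = 0.269.

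Rabs of recycling and delivery to the cell surface had 9 of 13 fold changes above 0. Rab10, which delivers glucose transporters to the plasma membrane of fat and muscle cells, had 48.3, 61.05, 60.03, 47.5 and 50.1 CPM in miR-17-5p cells and 38.6, 35.5 and 40.9 CPM in control cells. The groups did not overlap and Rab10 had the smallest p of the family, but it also missed the threshold (log2 fold change 0.48 ± 0.16 SE, adjusted p = 0.116). The recycling endosome Rabs overlapped between the groups, with averages for Rab11a of 63.4 ± 11.96 CPM (SD, n = 5) in miR-17-5p cells and 59.1 ± 7.26 CPM (SD, n = 3) in control cells. Rab8a, which carries vesicles to the plasma membrane and the cilium, averaged 104 ± 16.5 CPM (SD, n = 5) in miR-17-5p cells and 103 ± 6.21 CPM (SD, n = 3) in control cells.

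Of the 7 early endosome Rabs, 3 had a fold change above 0 and 4 below, and the groups overlapped for each. Rab5b and Rab5c, forms of the Rab that fuses early endosomes, gave log2 fold changes of -0.08 ± 0.15 and 0.13 ± 0.12 (SE, adjusted p = 0.824 and 0.609 by edgeR). Rab31, a Rab of the trans-Golgi network and endosomes, had 32.1, 38.04, 78.3, 46.1 and 43.4 CPM in miR-17-5p cells and 27.3, 34.8 and 34.2 CPM in control cells (log2 fold change 0.57 ± 0.26 SE, adjusted p = 0.257). Rab31 was the 1 member of this role with an unadjusted p under 0.05.

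Among late endosomal and lysosomal Rabs, 3 of 8 were higher at an unadjusted p under 0.05, against 11% of all genes. Rab32, a Rab of lysosome-related organelles and mitochondria, had 15.8, 21.8, 31.1, 23.1 and 26.6 CPM in miR-17-5p cells and 19.5, 12.5 and 6.41 CPM in control cells. The lowest miR-17-5p library lay below the highest control library (log2 fold change 0.84 ± 0.32 SE, adjusted p = 0.174). Its close relative Rab38 had 2.27, 12.05, 2.75, 1.92 and 2.45 CPM in miR-17-5p cells and 1.31, 0.8697 and 0 CPM in control cells, with miR-17-5p library 2 far above the others (log2 fold change 2.36 ± 0.93 SE, adjusted p = 0.187). Rab9a, which returns cargo from late endosomes to the trans-Golgi network, had 8.06, 15.2, 9.804, 6.34 and 9.08 CPM in miR-17-5p cells and 6.35, 2.899 and 6.41 CPM in control cells (log2 fold change 0.91 ± 0.41 SE, adjusted p = 0.249). On GRCr8 the span of Rab9a overlaps that of the gene Trappc2, with the same limit as for Rab3a. Rab24, linked to autophagy, had 69.3, 44.5, 51.4, 69.6 and 52.99 CPM in miR-17-5p cells and 64.5, 87.7 and 62.6 CPM in control cells, which overlapped (log2 fold change -0.31 ± 0.18 SE, adjusted p = 0.387). Rab7a gave a log2 fold change -0.04 ± 0.13 SE, adjusted p = 0.909, with a 95% interval from -0.32 to 0.24.

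Of the last role, Rab23, a Rab known for restraining hedgehog signalling, had 19.6, 25.2, 25.1, 19.2 and 18.7 CPM in miR-17-5p cells and 13.1, 14.6 and 14.6 CPM in control cells. The groups did not overlap (log2 fold change 0.62 ± 0.22 SE, adjusted p = 0.148). Rab40b, which couples to a ubiquitin ligase through its SOCS box, had 32.4, 25.2, 22.02, 24.99 and 24.8 CPM in miR-17-5p cells and 31.8, 32.03 and 29.9 CPM in control cells (log2 fold change -0.27 ± 0.18 SE, adjusted p = 0.468).

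**Figure D3:**
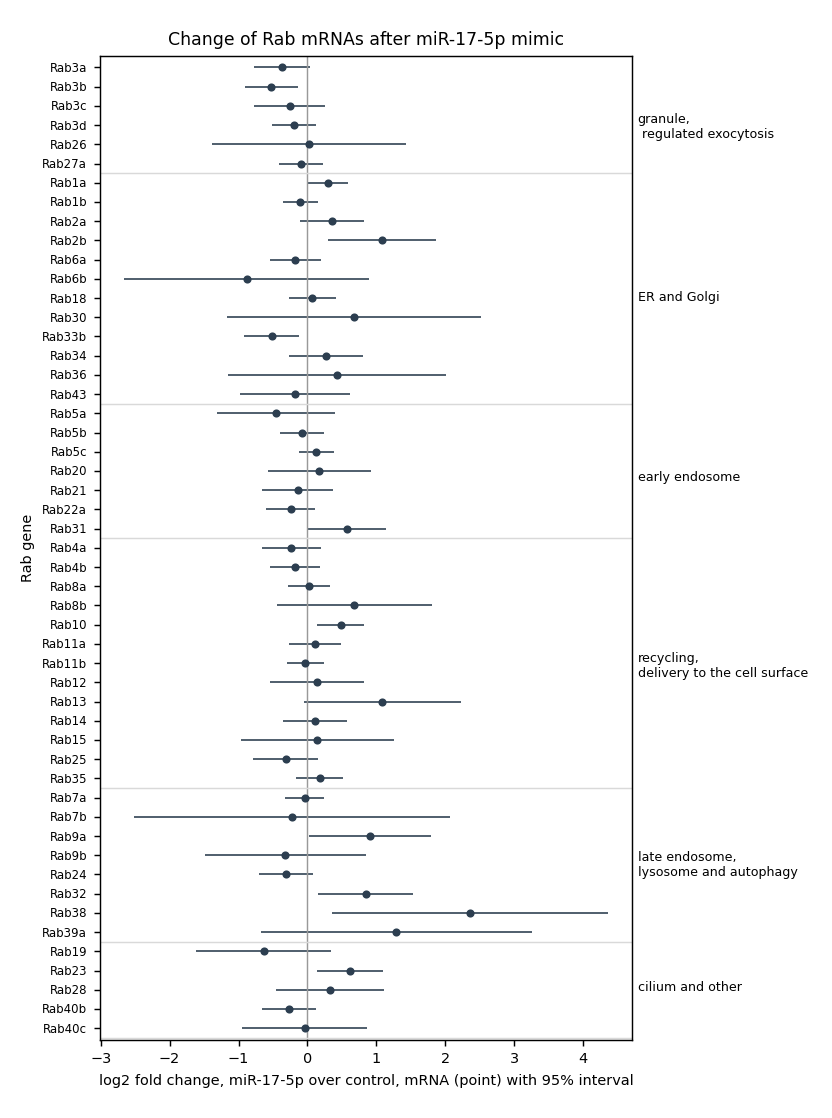
Log2 fold change, miR-17-5p against control mRNA, of the 51 tested Rab genes by role, with 95% intervals from the edgeR fit. None passed the adjusted threshold; the intervals of 9 members, 7 higher and 2 lower, leave out 0.

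The second comparison asked which Rab transcripts were carried by Ago2 in larger or smaller amounts once the microRNA had been added. Of 47 tested members 0 were called by edgeR, against 0.371% of all genes, 0.339% higher and 0.0318% lower. At an unadjusted p under 0.05, 10 members were higher, against 17.7% of all genes, and 2 lower, against 2.39%. DESeq2 called 7 members, 5 higher and 2 lower, and limma-voom 0. The median log2 fold change was 0.20 over the members and 0.27 over all genes. Groups did not overlap for 5 higher members (Rab13, Rab40b, Rab15, Rab8b and Rab32, against 17.6% of all genes) and 3 lower members (Rab3d, Rab6a and Rab9b, against 3.36%). The number called by edgeR moved with single libraries: from 0 it rose to 4 without miR-17-5p replicate 4 and to 2 without control replicate 2.

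Detection differed between the groups of this comparison. At an equal depth of 3379456 counts, the miR-17-5p Ago2 libraries held 46.8, 39.0, 49.9 and 42.4 of the 54 members and the control Ago2 libraries 35.4, 34.6 and 25.8. The same held for other genes: of the 51 members that passed the mRNA filter, 13.7 ± 7.67% were at 0 in the miR-17-5p Ago2 libraries (SD, n = 4) and 37.9 ± 13.0% in the control Ago2 libraries (SD, n = 3), against 13.1 ± 5.54% and 40.1 ± 8.603% of all genes that passed it. Of these 51 members 21, or 41.2%, had counts in all 7 Ago2 libraries, against 39.3% of all genes. Rab36, a Golgi Rab, was at 0 in all 7.

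Rab13 and Rab15 had counts in all 4 miR-17-5p Ago2 libraries and in none of the 3 control Ago2 libraries, a pattern of 3.92% of the members and 5.38% of all genes. Rab13, known from tight junctions, had 42, 47, 26 and 29 counts in Ago2-bound RNA of miR-17-5p cells, or 2.75, 4.14, 2.43 and 4.06 CPM. Against the floor of 3 counts per library that a count of 0 allows, it was at least 10.4-fold higher than in control cells. Such bounds, here and below, cover counting error only and not the spread between libraries. Rab15, a Rab of endosomal recycling that is abundant in brain, had 114, 188, 65 and 16 counts or 7.46, 16.5, 6.08 and 2.24 CPM and was at least 25-fold higher. The edgeR adjusted p was 0.0725 for both. Rab13 passed at 0.0354 without miR-17-5p replicate 4, and Rab15 passed without that replicate or without control replicate 2, at 0.0399 at the lowest.

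Rab40b had 5.24, 11.1, 10.1 and 6.72 CPM in Ago2-bound RNA of miR-17-5p cells and 0.0556, 0 and 0 CPM in that of control cells, which together held 1 count. The ratio of the pooled counts of each group, over its pooled scaled library sizes, was 273, with a counting interval from 48.7 to 10800 (95%, counting error only). Its edgeR adjusted p was 0.0725, and 0.041 at the lowest where it passed, without miR-17-5p replicate 4 or control replicate 2. Rab8b, the second Rab8 form, had 16.9, 2.82, 19.4 and 13.999 CPM in miR-17-5p cells and 0.445, 0.108 and 0 CPM in control cells (log2 fold change 6.05 ± 2.08 SE, adjusted p = 0.129). Rab43, a Golgi Rab, had 9.03, 10.6, 3.65 and 0 CPM in miR-17-5p cells and none in control cells, so that it was at least 18-fold higher (edgeR adjusted p = 0.129). In miR-17-5p replicate 6 it was also at 0. Other members at 0 in all control Ago2 libraries, but with counts in some of miR-17-5p cells, were Rab6b, Rab20, Rab30, Rab7b, Rab19 and Rab26. So was Rab17, which did not pass the mRNA filter and had 5 counts in all there.

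The lower members were detected in both groups. Rab3d had 103, 99.8, 126 and 79.1 CPM in Ago2-bound RNA of miR-17-5p cells and 197, 132 and 216 CPM in that of control cells. All 4 miR-17-5p libraries lay below the 3 control libraries, and the difference missed the threshold (log2 fold change -0.81 ± 0.28 SE, adjusted p = 0.129). Rab6a, which carries cargo within and back from the Golgi, had 40.6, 40.7, 36.7 and 22.8 CPM in miR-17-5p cells and 90.6, 61.7 and 93.7 CPM in control cells. It too did not overlap between the groups (log2 fold change -1.19 ± 0.46 SE, adjusted p = 0.157). On GRCr8 the span of Rab6a overlaps those of the genes Mrpl48 and Plekhb1, with the same limit as for Rab3a. By DESeq2 both Rab3d and Rab6a were called lower. Rab9b, a Rab9 form of late endosomes, had 0.589, 0, 5.42 and 8.54 CPM in miR-17-5p cells and 46.99, 14.5 and 54.2 CPM in control cells (log2 fold change -3.38 ± 1.76 SE, adjusted p = 0.38). Rab14, which moves cargo between endosomes and Golgi, had 18.5, 20.8, 12.9 and 14.1 CPM in miR-17-5p cells and 11.5, 35.4 and 106 CPM in control cells, with control library 3 above all others (log2 fold change -1.61 ± 0.92 SE, adjusted p = 0.452).

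The remaining granule Rabs overlapped between the groups in Ago2-bound RNA. Rab27a had 162, 146, 106 and 76.7 CPM in miR-17-5p cells and 208, 120.4 and 91.97 CPM in control cells (log2 fold change -0.17 ± 0.37 SE, adjusted p = 0.975). Rab3c had 18.1, 39.5, 28.5 and 17.8 CPM in miR-17-5p cells and 64.4, 21.9 and 98.7 CPM in control cells (log2 fold change -1.22 ± 0.70 SE, adjusted p = 0.453). Rab3a and Rab3b were at 0 in control library 3 alone. Rab3b had 20.8, 8.097, 17.6 and 31.4 CPM in miR-17-5p cells and 24.9, 11.8 and 0 CPM in control cells (log2 fold change 0.702 ± 1.70 SE, adjusted p = 0.977), and Rab3a had 24.7, 17.3, 23.1 and 26.04 CPM in miR-17-5p cells and 31.5, 40.1 and 0 CPM in control cells (log2 fold change -0.04 ± 1.55 SE, adjusted p = 0.998). The sign of the Rab3a difference turned under limma-voom and when miR-17-5p replicate 4 or control replicate 1 or 2 was left out. Rab26 gave 1 count in 1 of 7 Ago2 libraries, and Rab27b gave 8, 0, 13 and 0 counts in miR-17-5p cells and 11, 0 and 20 counts in control cells.

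Large swings between replicates were common in the control Ago2 libraries. Rab5c had 131, 94.2, 137 and 133 CPM in Ago2-bound RNA of miR-17-5p cells and 105, 186 and 0.956 CPM in that of control cells. Rab8a had 25.99, 34.6, 30.6 and 20.6 CPM in miR-17-5p cells and 85.1, 3.77 and 0 CPM in control cells. Rab2b had 11.7, 0, 4.96 and 7.28 CPM in miR-17-5p cells and 26.97, 0 and 0 CPM in control cells. For these genes single control libraries ranged from the highest of all 7 values down to almost none, and 8 of the 51 members, 15.7% against 12.9% of all genes, were at 0 in control library 3 alone among the control Ago2 libraries.

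**Figure D4:**
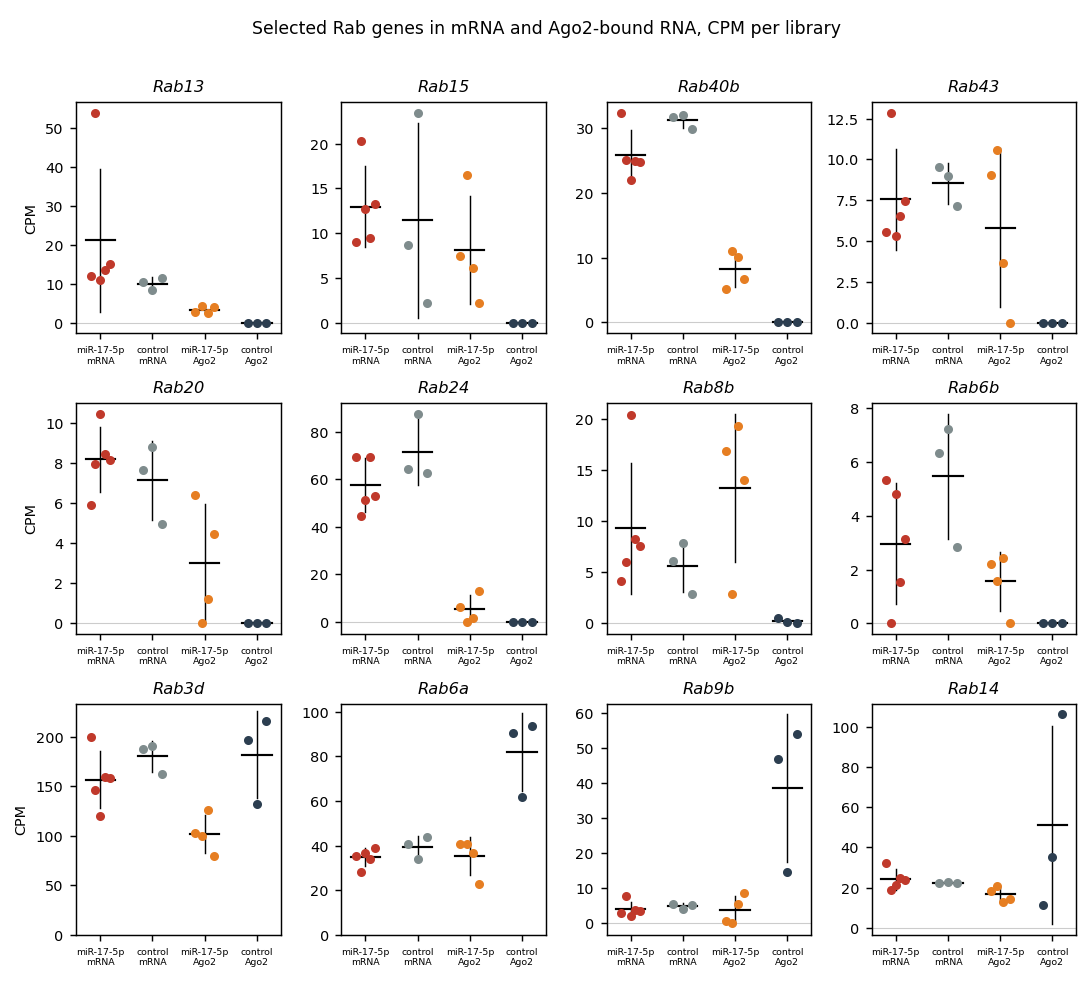
CPM per library of 12 Rab genes in mRNA and Ago2-bound RNA of miR-17-5p and control cells. The upper 2 rows hold the 8 genes whose miR-17-5p effect differed between Ago2-bound RNA and mRNA, with control Ago2 values at or near 0; the lowest row holds Rab3d, Rab6a, Rab9b and Rab14, whose 4 miR-17-5p Ago2 values lie mostly below those of control cells.

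The third comparison asked whether the microRNA moved a transcript more in the Ago2-bound RNA than in the mRNA pool. For 8 of 52 tested members, 15.4%, the effect was higher in Ago2-bound RNA, against 13% of all genes, and for 0 it was lower, against 0.394%. At an unadjusted p under 0.05 these counts were 11, against 22.9% of all genes, and 1, against 2.42%, and DESeq2 called 11 members in all. The share of the Rab genes was thus close to that of all genes, and the median difference was 0.25 on the log2 scale over the members and 0.40 over all genes. The 8 were Rab13, Rab15 and Rab8b of recycling and delivery, Rab43 and Rab6b of the Golgi, the early endosomal Rab20, the autophagic Rab24 and Rab40b. In mRNA their log2 fold changes ran from -0.88 for Rab6b to 1.09 for Rab13, and none of the 8 was called there.

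All 8 were at or near 0 in Ago2-bound RNA of control cells, so their fitted differences depend on the prior count and say little on size. Rab40b (adjusted p = 0.000145 by edgeR), Rab15 (0.00209), Rab13 (0.00349) and Rab43 (0.0116) passed with any replicate left out. Rab24 had 6.22, 0, 1.496 and 13.2 CPM in Ago2-bound RNA of miR-17-5p cells and 0, 0.108 and 0 CPM in that of control cells, although it had 64.5, 87.7 and 62.6 CPM in mRNA of control cells. Its call (edgeR adjusted p = 0.0162) was lost without miR-17-5p replicate 6, at 0.0513. Rab20, a Rab of phagosomes and early endosomes, had 6.41, 0, 1.22 and 4.48 CPM in Ago2-bound RNA of miR-17-5p cells and none in control cells, and was at least 9.38-fold higher there. Its call (edgeR adjusted p = 0.0225) was lost without miR-17-5p replicate 2 or 6 or control replicate 1, at up to 0.0589.

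Rab8b gave a difference of 5.203 ± 1.39 (SE, log2 scale; edgeR adjusted p = 0.0211), lost without miR-17-5p replicate 2, 5 or 6, at up to 0.0695. Rab6b, the Rab6 form abundant in brain, had 2.23, 1.58, 2.43 and 0 CPM in Ago2-bound RNA of miR-17-5p cells and none in control cells, at least 4.83-fold higher there. Its call (edgeR adjusted p = 0.0458) held in only 2 of 8 fits that left out a replicate and otherwise reached 0.112. With limma-voom 0 members were called, and between 5 and 10 were with 1 replicate left out, the fewest without miR-17-5p replicate 6. Of the members whose effect was on balance lower in Ago2-bound RNA, the smallest p belonged to Rab6a (-1.04 ± 0.46 SE, adjusted p = 0.169), Rab3d (-0.63 ± 0.30 SE, 0.211), Rab14 (-1.72 ± 0.85 SE, 0.232) and Rab39a (-5.31 ± 2.76 SE, 0.262). Only Rab39a passed with a library left out, at 0.0465 without miR-17-5p replicate 5, which alone of the miR-17-5p Ago2 libraries held it. Rab6a was also called lower by DESeq2.

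The last 2 comparisons asked which Rab transcripts were over- or under-represented on Ago2 relative to the mRNA pool, once in miR-17-5p cells and once in control cells. These 2 comparisons share no library. The mRNA libraries were selected for poly(A), and the labels state no such selection for the Ago2 libraries, so capture and library preparation cannot be told apart from Ago2 binding. In miR-17-5p cells 6 of 52 tested members were higher in Ago2-bound RNA, 11.5% against 21.7% of all genes, and 13 were lower, 25% against 21.8%, so that 43.5% of all genes were called in either direction. The groups did not overlap for 5 higher and 15 lower members, against 16.3% and 28.6% of all genes. In control cells 0 of 47 were higher, against 5.96% of all genes, and 11 were lower, 23.4% against 22.3%. At an unadjusted p under 0.05, 4 were higher, against 9.4% of all genes, and DESeq2 called 17 members in all. There the groups did not overlap for 5 higher and 19 lower members, against 12% and 39.9%. The median log2 ratio of Ago2-bound RNA to mRNA was -0.48 over the members and -0.15 over all genes in miR-17-5p cells, and -0.76 and -0.69 in control cells. With DESeq2 size factors the medians of all genes became -0.26 in miR-17-5p cells and -0.87 in control cells. Without control replicate 1 no gene at all was called in control cells, and every adjusted p given for control cells below then rose above 0.05.

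Granule Rabs held members of both kinds in miR-17-5p cells, 2 higher and 3 lower of 7. Rab27a had 162, 146, 106 and 76.7 CPM in Ago2-bound RNA and 64.2, 56.7, 52.3, 65.9 and 69.5 CPM in mRNA of miR-17-5p cells. Every Ago2 library lay above every mRNA library (log2 fold change 1.16 ± 0.22 SE, adjusted p = 0.00113). In control cells Rab27a was at 208, 120.4 and 91.97 CPM in Ago2-bound RNA and 60.96, 76.8 and 60.1 CPM in mRNA, which also did not overlap (log2 fold change 1.09 ± 0.38 SE, adjusted p = 0.0923). Rab3c was higher in Ago2-bound RNA of miR-17-5p cells as well (log2 fold change 0.96 ± 0.31 SE, adjusted p = 0.0259), and lost its call without miR-17-5p replicate 4 or 5, at up to 0.123. In control cells the ratio of Rab3c was 1.77 ± 0.73 (SE, adjusted p = 0.15 by edgeR).

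Rab3b was lower in Ago2-bound RNA than in mRNA. It had 20.8, 8.097, 17.6 and 31.4 CPM in Ago2-bound RNA and 149, 79.6, 113, 129 and 130.1 CPM in mRNA of miR-17-5p cells (log2 fold change -2.47 ± 0.34 SE, adjusted p = 0.000148). No library overlapped, and the call held with each replicate left out. In control cells the ratio was -3.82 ± 1.60 (SE, edgeR adjusted p = 0.162), and it passed at 0.0431 without control replicate 3. Rab3a was lower in Ago2-bound RNA of miR-17-5p cells (log2 fold change -0.77 ± 0.24 SE, adjusted p = 0.0196), a call lost without miR-17-5p replicate 1, 2 or 5, at up to 0.0569. Rab26, with 1 count over 4 libraries, was lower too (ratio 0.00669, counting interval 0.000168 to 0.0379, 95%, counting error only; edgeR adjusted p = 0.00363). In control cells Rab26 was at 0 in Ago2-bound RNA and at least 11.7-fold lower there than in mRNA (edgeR adjusted p = 0.00909). Rab3d showed -0.44 ± 0.19 (SE, adjusted p = 0.0824) in miR-17-5p cells and 0.02 ± 0.24 (SE, adjusted p = 0.981) in control cells, on the log2 scale. The Rab3d value of miR-17-5p cells was called lower with DESeq2 size factors and by DESeq2, and the sign in control cells turned in 7 of 11 other fits.

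Of the other roles, Rab7a was lower in Ago2-bound RNA in both kinds of cells. It had 196, 126, 167 and 196 CPM in Ago2-bound RNA and 428, 363, 321, 319 and 341 CPM in mRNA of miR-17-5p cells (log2 fold change -0.88 ± 0.17 SE, adjusted p = 0.00129). In control cells it had 159.5, 168 and 145 CPM in Ago2-bound RNA and 353, 408 and 332 CPM in mRNA (log2 fold change -1.204 ± 0.17 SE, adjusted p = 0.0084). No library overlapped in either kind of cell. Rab8a gave the smallest p in miR-17-5p cells, with 25.99, 34.6, 30.6 and 20.6 CPM in Ago2-bound RNA and 129, 105, 107, 94.8 and 85.1 CPM in mRNA (log2 fold change -1.73 ± 0.21 SE, adjusted p = 4.71e-05). In control cells its Ago2 libraries differed too widely for a call (-1.79 ± 1.93 SE, adjusted p = 0.656). Rab18, a Rab of lipid droplets and the endoplasmic reticulum, was lower in miR-17-5p cells (log2 fold change -0.75 ± 0.21 SE, adjusted p = 0.013) and lost the call without miR-17-5p replicate 5 or 6, at up to 0.0589.

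Rab23 and Rab32 were higher on Ago2 in miR-17-5p cells. Rab23 had 50.5, 41.8, 47.5 and 29.96 CPM in Ago2-bound RNA and 19.6, 25.2, 25.1, 19.2 and 18.7 CPM in mRNA (log2 fold change 1.15 ± 0.24 SE, adjusted p = 0.00222). Rab32 had 33.2, 55.2, 47.9 and 35.98 CPM in Ago2-bound RNA and 15.8, 21.8, 31.1, 23.1 and 26.6 CPM in mRNA (log2 fold change 1.03 ± 0.26 SE, adjusted p = 0.00705), and its call was lost without miR-17-5p replicate 5, at 0.0534. Neither gene overlapped. Rab10 (log2 fold change 0.697 ± 0.22 SE, adjusted p = 0.0246) and Rab40c, a relative of Rab40b (log2 fold change 1.32 ± 0.49 SE, adjusted p = 0.0479), also passed, but Rab10 lost its call without miR-17-5p replicate 1, 2, 5 or 6, at up to 0.157, and Rab40c with any of the 5 replicates left out, at up to 0.153. In control cells the largest upward ratios by p belonged to Rab9b, with 46.99, 14.5 and 54.2 CPM in Ago2-bound RNA and 5.47, 4.06 and 4.98 CPM in mRNA (log2 fold change 2.99 ± 0.93 SE, adjusted p = 0.0658), and Rab6a, with 90.6, 61.7 and 93.7 CPM and 40.6, 33.9 and 43.8 CPM (log2 fold change 1.06 ± 0.37 SE, adjusted p = 0.0916). Both were above every mRNA library, and neither passed by edgeR, while DESeq2 called both higher and limma-voom called Rab9b. Rab10 and Rab40c had log2 ratios of 1.24 ± 0.45 and 1.86 ± 1.06 in control cells (SE, adjusted p = 0.104 and 0.317 by edgeR). For these 2 genes every control Ago2 library lay above every control mRNA library. Rab23 and Rab32 overlapped in control cells, at 0.57 ± 1.002 and 0.56 ± 0.97 (SE, adjusted p = 0.807 and 0.803 by edgeR).

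Members that were lower on Ago2 than in mRNA of miR-17-5p cells included several at or near 0 on Ago2 in control cells. Rab13 had 2.75, 4.14, 2.43 and 4.06 CPM in Ago2-bound RNA and 12.02, 54.01, 10.8, 13.6 and 15.1 CPM in mRNA of miR-17-5p cells (log2 fold change -2.502 ± 0.59 SE, adjusted p = 0.00496). Rab40b had 5.24, 11.1, 10.1 and 6.72 CPM and 32.4, 25.2, 22.02, 24.99 and 24.8 CPM in the same libraries (log2 fold change -1.48 ± 0.34 SE, adjusted p = 0.00417). Rab24 gave a log2 fold change -3.35 ± 0.87 SE, adjusted p = 0.0083, with the call lost without miR-17-5p replicate 5 at 0.0586. Rab36, at 0 in all Ago2 libraries, was at least 15.6-fold lower in Ago2-bound RNA than in mRNA of miR-17-5p cells (edgeR adjusted p = 0.00243). It was at least 9.91-fold lower in control cells, but did not pass the filter there and was not tested. In control cells, 7 called members were at 0 in all Ago2 libraries, and their levels were at least 35.4-fold lower than in mRNA for Rab15, 31-fold for Rab13, 26.5-fold for Rab43, 25.5-fold for Rab19, 22.2-fold for Rab20, 17-fold for Rab6b and 11.7-fold for Rab26. Adjusted p lay between 0.00885 for Rab20 and 0.028 for Rab15 by edgeR, and the call of Rab15 was lost with any replicate left out, at up to 0.132.

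Over the 47 members tested in both kinds of cells, 5 were called lower in both: Rab7a, Rab24, Rab40b, Rab13 and Rab26. They make up 41.7% of the 12 members called lower in miR-17-5p cells and 45.5% of the 11 called lower in control cells, against 36.4% and 37.7% for all genes. None was called higher in both, with 6 called higher in miR-17-5p cells and 0 in control cells, while of all genes 586 were, 25.2% of those called higher in miR-17-5p cells and 96.7% of those in control cells. The log2 ratios had the same sign for 37 members, 78.7% against 79% of all genes, and correlated with r = 0.533 across the 47 members and 0.578 across 10055 genes. Genes are not independent replicates, so these r values are descriptions. Within each kind of cell, the mean log2(CPM + 1) on Ago2 followed that in mRNA across the 51 members, with r = 0.847 in miR-17-5p cells and 0.693 in control cells, against 0.773 and 0.68 over all genes.

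**Figure D5:**
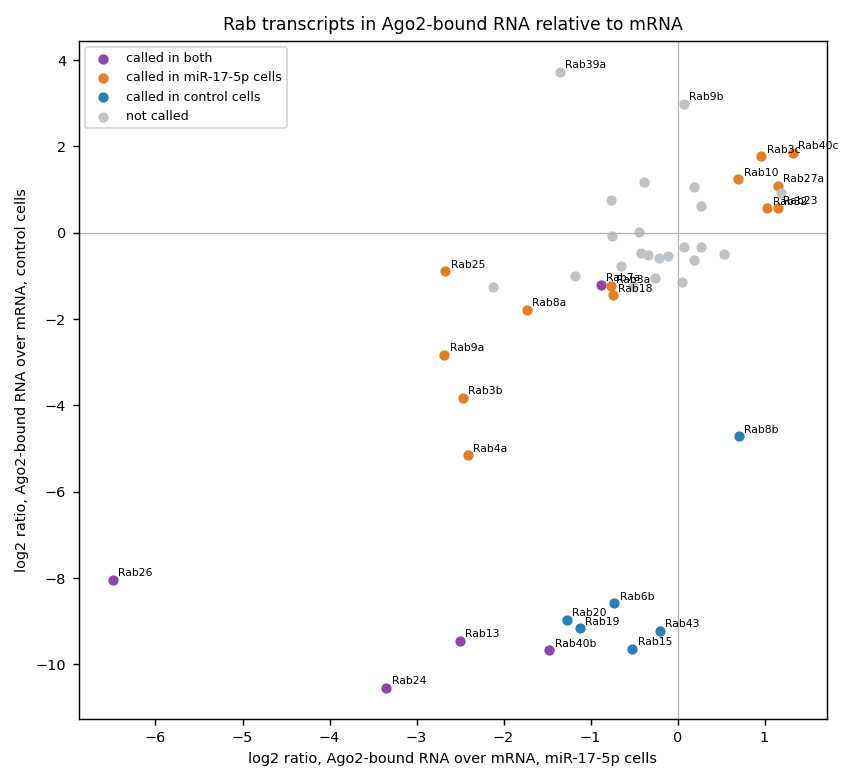
Log2 ratio of Ago2-bound RNA to mRNA of 47 Rab genes in miR-17-5p cells (horizontal) and control cells (vertical), coloured by the edgeR call. Rab7a, Rab24, Rab40b, Rab13 and Rab26 lie low on both axes, Rab27a lies above 0 on both, and the points furthest down are genes at or near 0 in Ago2-bound RNA of control cells.

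Genes that act on Rab proteins were followed as lists of their own. In mRNA, 1 of 32 tested effectors was higher with the microRNA and none of 7 prenylation and membrane extraction genes, 13 exchange factors or 13 GTPase activating proteins was called, against the 3.87% of all genes given above. The effector was Mical1, which oxidises actin, with 22.4, 41.7, 50.2, 37.3 and 44.02 CPM in miR-17-5p cells and 21.997, 11.7 and 8.54 CPM in control cells (log2 fold change 1.43 ± 0.32 SE, adjusted p = 0.0267). Its groups did not overlap, but the call was lost in 5 of 8 fits without 1 replicate (miR-17-5p 4, 5 or 6 or control 2 or 3), at up to 0.139. In Ago2-bound RNA no gene of these lists was called.

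The effect of the microRNA was higher in Ago2-bound RNA than in mRNA for 3 of 32 effectors, 1 of 13 exchange factors, 1 of 13 GTPase activating proteins and 0 of 7 prenylation and membrane extraction genes, against 13% of all genes, and lower for none. These 5 genes again had control Ago2 values at or near 0. Mon1a, part of the exchange factor of Rab7, had 14.7, 21.8, 12.3 and 13.4 CPM in Ago2-bound RNA of miR-17-5p cells and 0, 0 and 0 CPM in that of control cells, against 25.2, 21.9, 18.4, 28.6 and 25.9 CPM in mRNA of miR-17-5p cells and 32.1, 33.8 and 25.6 CPM in mRNA of control cells (edgeR adjusted p = 6.35e-05). Rabep2, a rabaptin of early endosomes, had 24.4, 15.7, 7.39 and 11.8 CPM in Ago2-bound RNA of miR-17-5p cells and 0, 0 and 0 CPM in that of control cells (edgeR adjusted p = 0.000145). Tbc1d2, a GTPase activating protein for Rab7, was at 7.59, 23.8, 7.01 and 8.82 CPM and 0.0556, 0 and 0 CPM in the same order (edgeR adjusted p = 0.000542). Sytl1, a Rab27 effector (adjusted p = 0.00725), and Rims1, a Rab3 effector of the release site (adjusted p = 0.0362), completed the list. The Rims1 call held in only 2 of 8 fits without 1 replicate and otherwise reached 0.105.

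Between Ago2-bound RNA and mRNA of miR-17-5p cells, 15 of 31 effectors, 9 of 13 GTPase activating proteins and 5 of 13 exchange factors were higher on Ago2, while 3, 1 and 0 were lower, against 21.7% higher and 21.8% lower of all genes. Myo5a, the motor that carries granules along actin, had 254, 172, 191 and 141 CPM in Ago2-bound RNA and 56.2, 51.7, 63.8, 50.4 and 59.5 CPM in mRNA of miR-17-5p cells (log2 fold change 1.92 ± 0.19 SE, adjusted p = 1.12e-05). In control cells Myo5a had 247, 150.3 and 209 CPM in Ago2-bound RNA and 43.01, 58.995 and 61.9 CPM in mRNA (log2 fold change 1.89 ± 0.29 SE, adjusted p = 0.00915). Usp6nl, a GTPase activating protein of endosomal Rabs, was higher on Ago2 in miR-17-5p cells (log2 fold change 1.74 ± 0.17 SE, adjusted p = 1.33e-05) and in control cells (log2 fold change 2.02 ± 0.48 SE, adjusted p = 0.0248). Ankfy1 and Plekhm1, effectors of Rab5 and Rab7, had log2 ratios of 1.74 ± 0.19 and 1.401 ± 0.20 in miR-17-5p cells (SE, adjusted p = 2.6e-05 and 0.000182 by edgeR). The GTPase activating proteins Tbc1d5 and Rabgap1 had 1.33 ± 0.17 and 1.13 ± 0.16 (SE, 7.15e-05 and 0.000186), and Rab3ip, the exchange factor of Rab8, 1.53 ± 0.29 (SE, 0.00121). In control cells Ankfy1 and Plekhm1 were also higher on Ago2, at 1.55 ± 0.29 and 1.25 ± 0.31 (SE, adjusted p = 0.0124 and 0.0289 by edgeR). Tbc1d5, Rabgap1 and Rab3ip were not called there.

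The prenylation and membrane extraction genes were split, with 2 of 7 higher and 3 lower on Ago2 in miR-17-5p cells and 2 higher and 2 lower in control cells. The Rab escort proteins Chm and Chml were higher in miR-17-5p cells. Chm had 17.9, 24.6, 25.99 and 19.6 CPM in Ago2-bound RNA and 8.81, 5.55, 4.13, 4.42 and 7.22 CPM in mRNA of miR-17-5p cells (log2 fold change 2.03 ± 0.38 SE, adjusted p = 0.00121), and Chml 43.6, 14.9, 20.01 and 22.8 CPM and 6.11, 0, 2.24, 1.92 and 4.19 CPM (log2 fold change 3.27 ± 0.83 SE, adjusted p = 0.00736). Rabac1, a receptor for prenylated Rabs, was lower, with 5.17, 29.6, 5.98 and 13.2 CPM in Ago2-bound RNA and 139, 128, 109.6, 133 and 118 CPM in mRNA of miR-17-5p cells (log2 fold change -3.09 ± 0.45 SE, adjusted p = 2e-04). In control cells, the edgeR ratios were 3.69 ± 0.98 for Chm, 3.64 ± 0.93 for Chml and -2.84 ± 0.48 for Rabac1 (SE, adjusted p = 0.0384, 0.0326 and 0.0103). With 1 replicate left out, and so fewer libraries, the call of Chm held only without control replicate 3. Those of Chml and Rabac1 were lost with any replicate left out. The adjusted p then reached up to 0.265, 0.165 and 0.0619. Of 8 other alternative fits, Chm and Chml were called in 6 and Rabac1 in 8. The log2 ratio of Rabac1 stayed between -3.42 and -2.64 over all alternatives. Control cells had 0 of 13 exchange factors higher and 1 lower, 2 of 13 GTPase activating proteins higher and 1 lower, and 3 of 31 effectors higher and 4 lower, against 5.96% higher and 22.3% lower of all genes.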

How the data were processed

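The authors deposited 1 table of raw counts per gene for each library. Per the submitters' processing notes, which name no order of steps, TopHat2 2.0.10, Bowtie2, HTSeq, DESeq and edgeR were used with build rn5. Per the labels' protocols, the single-end libraries keep no strand. Alignments that were not unique or ambiguous stayed out of library sizes and tests (15.0% to 31.2% and 0.151% to 0.454% of each library). The series tables' 15 columns repeated the libraries and were not used.

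Each of the 5 comparisons was fitted in R 4.3.3 with edgeR 4.0.16 on the libraries of its groups (TMM factors, filterByExpr, robust quasi-likelihood F-test, two-sided), with adjusted p under 0.05 as called, over all genes tested. CPM uses the TMM factors of all 15 libraries, log2 fold changes come from each comparison's fit, and the SE is the fold change over the root of F. Alternatives included DESeq2 1.42.0 and limma-voom 3.58.1. The floor for a count of 0 was 3 counts per library, which covers counting error only. Rab genes named were those called (in Ago2 against mRNA the 10 of smallest p per direction), all granule Rabs, the 5 with the most CPM and the 4 of smallest p per direction, and for regulators 3 called per list; 1 regulator is not reported here. Others, such as Rab38, Rab9a and Rab31, were chosen after their values were seen. Members and lists were chosen with earlier results of these data known. No pair of libraries was identical (chi-square per degree of freedom 7.08 to 327). The code was tested on simulated data. Their spread between libraries was set below that fitted in Ago2-bound RNA (common biological coefficient of variation 1.23), so the simulation does not cover that spread.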

Additional observations from a re-analysis of the deposited data

Results flagged for a closer look

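Single libraries stood far from the others of their group in 10 of 68 groups of values examined. Only miR-17-5p libraries were examined, and the control groups, of 3 libraries each, were not. Chance flags about 1 in 20 where values are independent and normally distributed, while these values share libraries and include counts of 0. In mRNA of miR-17-5p cells, library 2 was highest for Rab13 (54.0 CPM, the next 15.1), Rab36 (10.2 CPM, the next 3.84) and Rab43 (12.9 CPM, the next 7.45), and library 4 for Rab8b (20.5 CPM, the next 8.27). In Ago2-bound RNA of miR-17-5p cells, library 4 was lowest for Rab10 (45.8 CPM, the next 83.7) and Rab5c (94.2 CPM, the next 131), and highest for Rab19 (8.71 CPM, the others at 0). Library 6 was highest for Rab1a (322 CPM, the next 182) and Rab26 (0.14 CPM, 1 count, the others at 0), and library 5 for Rab39a (2.71 CPM, the others at 0).

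The effect of miR-17-5p differed between Ago2-bound RNA and mRNA, by the interaction in edgeR, for 8 Rab genes. The fitted log2 differences were 7.98 for Rab40b, 9.06 for Rab15, 6.89 for Rab13, 8.95 for Rab43, 7.15 for Rab24, 5.203 for Rab8b, 7.63 for Rab20 and 7.76 for Rab6b. Among regulators they were 10.53 for Mon1a, 10.15 for Rabep2, 8.204 for Tbc1d2, 5.92 for Sytl1 and 6.63 for Rims1. All 13 genes were at or near 0 in Ago2-bound RNA of control cells, so these sizes depend on the prior count and are no bounds. In the same libraries 37.9 ± 13.0% of the 51 Rab genes (SD, n = 3) and 40.1 ± 8.603% of all genes that passed the mRNA filter were at 0.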

How the results depend on the processing

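The number of Rab genes called moved with the test in all 5 comparisons. In mRNA it was 0, and 2 by limma-voom. In Ago2-bound RNA it was 0, and 7 by DESeq2, 11 with all 15 libraries in the fit and 0 to 4 without 1 replicate. For the difference it was 8, and 0 by limma-voom, 0 with the replicate block and 5 to 10 without 1 replicate. For Ago2-bound RNA against mRNA it was 19 in miR-17-5p cells, and 9 with all 15 libraries, 12 with the block and 10 to 21 without 1 replicate. In control cells it was 11, and 3 with a mean of at least 50 counts, 17 by DESeq2, 20 with all 15 libraries, 0 with the block and 0 to 13 without 1 replicate. Leaving out a replicate means fewer libraries, and the cause of the other moves was not tested.

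Single genes, regulators included, gave 1392 values under alternatives: 1191 kept direction and call, 140 lost the call, 36 gained it and 25 changed sign, none of these called in the report. In mRNA the sign turned for Rab26 by limma-voom (-0.177), with the block (-0.217) and without 1 replicate (-0.337 to 0.397), for Rab3c with the block (0.0082) and for Rab27a without control replicate 2 (range without 1 replicate -0.151 to 0.0264). In Ago2-bound RNA it turned for Rab3a by limma-voom (1.938) and without 1 replicate (-0.6601 to 0.583), and for Rab27a without 1 replicate (-0.425 to 0.167). For the difference it turned for Rab27a with a mean of at least 50 counts (0.0808), and without 1 replicate for Rab27a (-0.289 to 0.589), Rab26 (-0.0128 to 2.26) and Rab3a (-0.071 to 0.906). In control cells it turned for Rab3d with DESeq2 size factors (-0.163), by DESeq2 (-0.164) and limma-voom (-0.085), with a mean of at least 50 counts (-0.0183), with the block (-0.0104) and without 1 replicate (-0.201 to 0.185).

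Over all genes the calls in mRNA were 429, and 887 by DESeq2, 1001 by limma-voom, 13 with all 15 libraries, 0 with the block and 85 to 816 without 1 replicate. In Ago2-bound RNA they were 35, and 1305 by DESeq2, 20 by limma-voom, 2576 with all 15 libraries and 0 to 1225 without 1 replicate. For the difference they were 1533, and 0 by limma-voom, 30 with the block and 1155 to 2452 without 1 replicate. For Ago2-bound RNA against mRNA they were 4727 in miR-17-5p cells and 2459 with all 15 libraries, and 2870 in control cells, 1254 with a mean of at least 50 counts, 4754 with all 15 libraries, 338 with the block and 0 to 3114 without 1 replicate. DESeq2 size factors moved the median log2 fold change of all genes to 0.27 from 0.40 for the difference and to 0.19 from 0.27 in Ago2-bound RNA.

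Title numbers showed no pairing: same-numbered libraries correlated at 0.05 or less in their deviations from group means, and not every library correlated best with that of its own number. Pairs with different numbers mostly lay near 0 as well, so these correlations cannot exclude a shared source. The block rests on these numbers only. In Ago2-bound RNA alone the groups share only number 2, and no block was fitted. At 4185123 counts and 28 members at 0, control Ago2 library 3 limits what can be shown for Ago2-bound RNA of control cells.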
